A study of Mus musculus with 5 samples.

Results

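The genes described are the 10 that encode the CD3 complex of the T cell receptor and the T cell coreceptors CD4, CD8, CD5, CD6 and CD2, as transcribed in dermal group 2 innate lymphoid cells (dILC2s) of WT and Rag1-/- mice. They were picked by gene symbol (*Cd3g*, *Cd3d*, *Cd3e*, *Cd247*, *Cd4*, *Cd8a*, *Cd8b1*, *Cd2*, *Cd5* and *Cd6*) from a deposited table of 47729 genes, and all 10 were found. The study asked whether dILC2s of mice without adaptive lymphocytes differ from those of WT mice, and sequenced polyadenylated RNA of sorted skin cells in 5 libraries. WT libraries (pools 5, 6 and 13) came from C57BL/6 mice, 10 per pool, and Rag1-/- libraries (pools 2 and 7) from mice on the same background that carry the *Rag1* deletion in all tissues and have no mature T or B cells, 9 per pool by the methods. The methods give female mice of 8 to 13 weeks, and no cell was stimulated after the sort. Each library is a pool, so that differences between single mice cannot be seen. The labels count 16 Rag1-/- mice where the methods count 18, and they enter type 3 rather than type 2 as the cell type of the Rag1-/- samples, although the titles and the methods call them dILC2s. The methods describe a flow cytometry gate for dILC2s that took viable CD45+ CD90hi cells and left out those with a signal in a channel that CD2 and CD3 shared. They give no separate gate for the sort before sequencing. If the sort used this gate, proteins of some of the genes below took part in choosing the cells.

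T cells recognise peptides through a receptor whose own chains cannot signal. The CD3γ, CD3δ and CD3ε chains pair with each other and with a dimer of CD247 (the ζ chain), and the tyrosine motifs in their tails pass the signal on to the kinases LCK and ZAP70. CD4 and CD8 bring LCK to the receptor when they bind major histocompatibility complex (MHC) molecules, CD2 is an adhesion receptor, and CD5 and CD6 are related scavenger receptors that mostly restrain the signal. Innate lymphoid cells make no rearranged receptor at their surface, yet they arise from precursors related to those of T cells and are known to carry transcripts of some CD3 chains.

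The libraries held 32939428 to 39477243 counts in WT, and 8050562 (pool 2) and 38922750 (pool 7) in Rag1-/-. At 3 counts, taken as the smallest level a depth can show, this is 0.373 CPM (counts scaled to a common library total) in Rag1-/- pool 2 and between 0.0760 and 0.0911 CPM in the other libraries. The targeted gene did not check the labels, since *Rag1* counts were 4, 0 and 5 in WT against 5 and 48 in the Rag1-/- libraries, and whether its counts come from the deleted part is not known. Genotypes are therefore those of the labels throughout. A list of 26 genes of all leukocytes summed to between 1180 and 2707 CPM in WT and to 7552 and 9045 CPM in the libraries labelled Rag1-/-. A list of 13 keratinocyte genes summed to between 28649 and 40576 CPM and to 7248 and 16951 CPM. Leukocyte RNA was thus a larger share of the Rag1-/- libraries, and skin epithelial RNA a smaller one. In bulk samples fewer cells of a type and less RNA per cell cannot be told apart, which holds for each level below.

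*Cd3g*, *Cd3d* and *Cd3e* lie side by side on chromosome 9 of GRCm38, where *Cd3g* (44969572 to 44980431, minus strand) and *Cd3d* (44981793 to 44987052, plus strand) are read away from each other from starts 1.36 kb apart and *Cd3e* (44998743 to 45009590, minus strand) follows 11.7 kb further on. *Cd247* is on chromosome 1 (165788681 to 165877277, plus strand). The 250 bases before the start of these 4 genes are printed from RefSeq (GRCm38.p6), since *Cd3g* and *Cd247* passed the test below and the neighbours of *Cd3g* did not. RefSeq gave such a sequence for 6 of the 10 genes. Capitals mark matches, on both strands, to letters that GATA factors (AGATAA), RUNX factors (TGTGGT) and ETS factors (GGAAGT) are known to bind, and each sequence runs 5′ to 3′ on the strand of its gene.
Cd3g: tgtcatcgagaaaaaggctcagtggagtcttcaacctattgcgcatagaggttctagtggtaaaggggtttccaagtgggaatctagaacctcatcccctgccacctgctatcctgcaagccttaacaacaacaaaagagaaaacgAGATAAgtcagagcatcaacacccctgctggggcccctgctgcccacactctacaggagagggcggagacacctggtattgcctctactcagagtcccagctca
Cd3d: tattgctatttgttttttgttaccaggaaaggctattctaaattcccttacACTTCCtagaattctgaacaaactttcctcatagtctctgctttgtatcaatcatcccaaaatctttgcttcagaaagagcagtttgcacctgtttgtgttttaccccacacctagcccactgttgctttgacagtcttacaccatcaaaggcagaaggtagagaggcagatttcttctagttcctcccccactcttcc
Cd3e: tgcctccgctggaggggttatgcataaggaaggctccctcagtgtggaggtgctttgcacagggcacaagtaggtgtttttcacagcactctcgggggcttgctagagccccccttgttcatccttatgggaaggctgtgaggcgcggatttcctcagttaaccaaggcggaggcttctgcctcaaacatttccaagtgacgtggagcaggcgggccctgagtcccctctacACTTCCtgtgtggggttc
Cd247: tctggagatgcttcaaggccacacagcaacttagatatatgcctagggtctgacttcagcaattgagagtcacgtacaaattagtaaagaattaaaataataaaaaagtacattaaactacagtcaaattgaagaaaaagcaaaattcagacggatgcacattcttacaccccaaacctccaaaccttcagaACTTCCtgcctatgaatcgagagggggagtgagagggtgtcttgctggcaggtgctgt
These windows are chr9:44980432-44980681, chr9:44981536-44981785, chr9:45009612-45009861 and chr1:165788431-165788680. The GATA letters occurred in the *Cd3g* window alone among the 6 genes, at 104 bases before the start, and in 9.99% of 32851 promoters of the same length. The ETS letters occurred in the windows of *Cd3d*, *Cd3e*, *Cd247* and *Cd5* but not of *Cd3g* or *Cd8a*, and in 19.7% of all promoters. The RUNX letters were in none of the 6 windows (14% of all promoters), and the E-box letters CANNTG, not capitalised, were in all 6 (66.2% of all promoters), 3 times in *Cd3g*. A match is a stretch of letters and does not show that a factor binds there.

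*Cd3g*, which encodes the γ chain, was the most abundant of the 10 genes per kilobase in every library and the one with the largest fitted rise. It had 11.1, 13.2 and 19.0 CPM in WT (430, 522 and 627 counts) and 68.4 and 64.1 CPM in the Rag1-/- libraries (551 and 2496 counts). Both Rag1-/- libraries stood far above every WT library and close to each other. *Cd3g* rose from 14.4 ± 4.11 CPM (SD, n = 3) to 66.3 ± 3.05 CPM (SD, n = 2), and the fitted log2 fold change was 2.23 with a standard error of 0.26 and a 95% interval of 1.63 to 2.84 (adjusted p = 0.0306, quasi-likelihood test of edgeR), or 4.70-fold.

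*Cd247*, which encodes the ζ chain, moved the same way. It had 5.90, 7.68 and 6.92 CPM in WT and 23.4 and 20.5 CPM in the libraries labelled Rag1-/-, which did not overlap with WT. Its log2 fold change was 1.71 (standard error 0.24, 95% interval 1.15 to 2.27, adjusted p = 0.0306, edgeR), or 3.27-fold. *Cd247* was the only one of the 10 genes that shares bases with other genes of the table, 6 in all. The library kit does not mark strand, so that reads on shared bases cannot be told apart by strand. The largest of them, *Pou2f1* (a ubiquitous transcription factor), had 1423 to 1759 counts in WT, 413 and 1191 in Rag1-/- and a log2 fold change of -0.04 (adjusted p = 0.948, edgeR). In CPM, Rag1-/- pool 2 was above and pool 7 below the WT libraries for *Pou2f1*, while both were above them for *Cd247*.

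The genes of the other CD3 chains did not pass the test. *Cd3e*, whose ε chain is the shared partner of γ and δ, had 5.46, 7.98 and 7.10 CPM in WT and 9.44 and 7.42 CPM in Rag1-/-, and the groups overlapped. Its log2 fold change was 0.32 (standard error 0.30, 95% interval -0.38 to 1.03, adjusted p = 0.553, edgeR). *Cd3d*, which encodes the δ chain, had 1.65, 3.85 and 3.01 CPM in WT and 4.22 and 3.11 CPM in Rag1-/- (log2 fold change 0.38, standard error 0.46, 95% interval -0.70 to 1.46, adjusted p = 0.655, edgeR). Here too Rag1-/- pool 7 lay within the WT range. The upper ends of both intervals lie below the lower end of the *Cd3g* interval, while neither interval leaves out a change of 1 on the log2 scale.

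**Figure D1:**
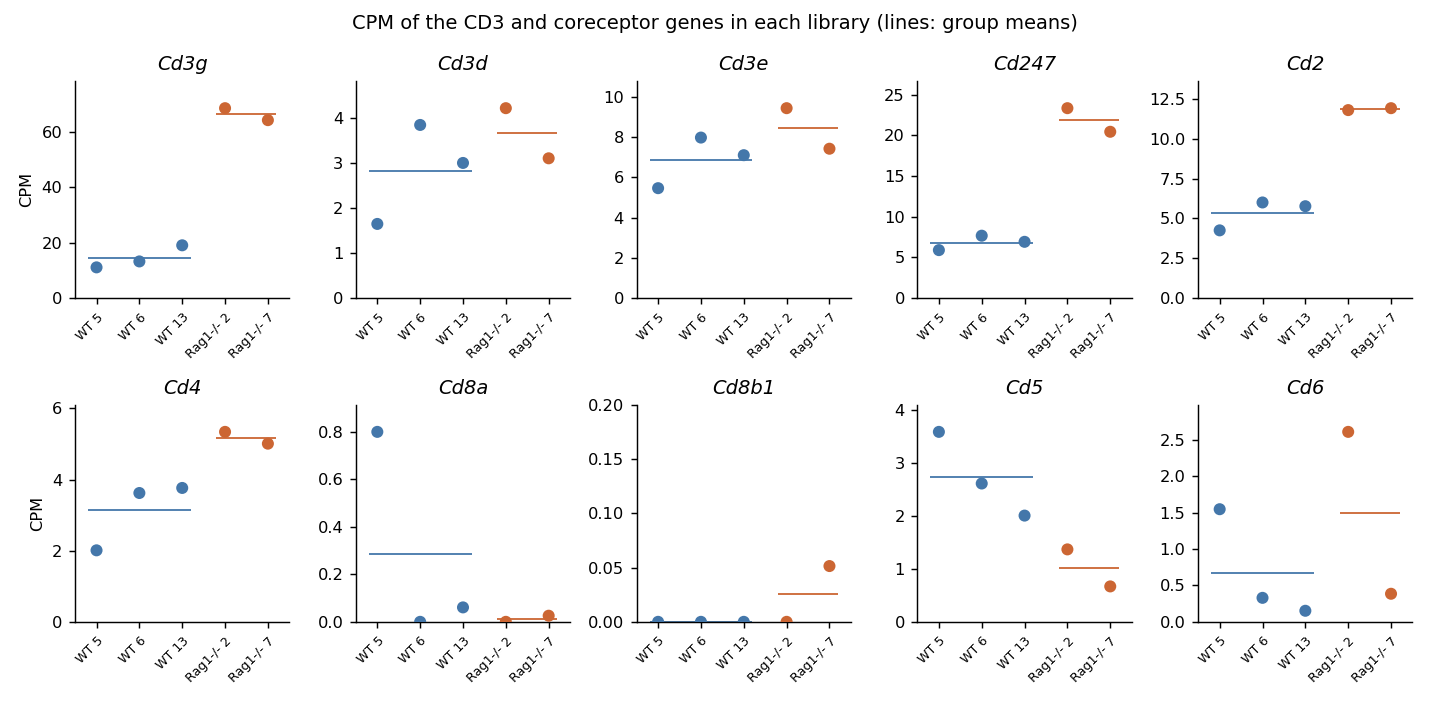
CPM of each of the 10 genes (vertical axes, linear, each from 0) in the 5 libraries (horizontal axes, WT pools 5, 6 and 13, then Rag1-/- pools 2 and 7), 1 point per library. *Cd3g*, *Cd247*, *Cd2* and *Cd4* have both Rag1-/- points above all WT points, *Cd5* has both below, and *Cd3e*, *Cd3d* and *Cd6* overlap.

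Of the coreceptors, *Cd4* (chromosome 6, 124864692 to 124888221) was transcribed at a low level, with 2.01, 3.62 and 3.76 CPM in WT and 5.34 and 5.01 CPM in the libraries labelled Rag1-/-. All counts were between 43 and 195, and the groups did not overlap. The log2 fold change was 0.75 (standard error 0.39, 95% interval -0.16 to 1.67, adjusted p = 0.27, edgeR), which did not pass. *Cd8b1*, the β chain of CD8 (71322788 to 71337494 on the same chromosome), was at 0 in all WT libraries and in Rag1-/- pool 2, with 2 counts in pool 7. Its level was at or under the 3-count floor everywhere. The counts of *Cd8a*, the α chain (71373427 to 71379173), were 31, 0 and 2 in WT, and 0 and 1 in Rag1-/-. WT pool 5 alone was above the floor, at 0.799 CPM (exact Poisson 95% interval 0.543 to 1.13, counting error only). Neither CD8 gene passed the filter on low counts of the edgeR fit, and without that filter neither was called (adjusted p = 0.283 for *Cd8a* and 0.557 for *Cd8b1*, edgeR).

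*Cd2*, which encodes the adhesion receptor for CD48 (chromosome 3, 101275899 to 101287939), had 4.25, 6.0 and 5.77 CPM in WT and 11.8 and 11.9 CPM in the libraries labelled Rag1-/-. The Rag1-/- libraries were nearly equal and stood above all WT libraries. The log2 fold change of 1.18 (standard error 0.28, 95% interval 0.52 to 1.85, adjusted p = 0.0547, edgeR) narrowly missed the threshold. *Cd2* passed with DESeq2 (1.15, adjusted p = 0.00424), without a filter on low counts (1.12, adjusted p = 0.0405, edgeR) and with at least 10 counts in every library (1.14, adjusted p = 0.0358, edgeR). It did not pass with RLE scaling (adjusted p = 0.0572, edgeR), library size alone (adjusted p = 0.0562, edgeR) or limma on the deposited signal (adjusted p = 0.0569). Nor did it pass without WT pool 5, 6 or 13. Scaled on leukocyte genes, its log2 fold change was -0.93 (adjusted p = 0.25, edgeR).

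*Cd5*, an inhibitory scavenger receptor (chromosome 19, 10718143 to 10738974), was the only tested gene of the set with a negative log2 fold change. It had 3.58, 2.61 and 2.00 CPM in WT (139, 103 and 66 counts) and 1.37 and 0.668 CPM in the libraries labelled Rag1-/- (pools 2 and 7 with 11 and 26). Both Rag1-/- values were below all WT values, although the counting interval of Rag1-/- pool 2 (0.682 to 2.44 CPM, exact Poisson) overlapped that of WT pool 13 (1.55 to 2.55 CPM). The log2 fold change was -1.48 (standard error 0.53, 95% interval -2.73 to -0.24, adjusted p = 0.135, edgeR). It did not pass here, and it was called lower with DESeq2 (-1.56, adjusted p = 0.0381).

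*Cd6*, the neighbour of *Cd5* 50.4 kb away and its closest relative in the set, had 1.55, 0.329 and 0.152 CPM in WT and 2.61 and 0.385 CPM in Rag1-/-. WT pool 5 and Rag1-/- pool 2 were high and the other 3 libraries low, so that the spread within each genotype exceeded the difference between them. The log2 fold change was 1.03 (standard error 1.14, 95% interval -1.65 to 3.71, adjusted p = 0.625, edgeR), and it turned to -0.74 (adjusted p = 0.763, edgeR) without Rag1-/- pool 2. The list of 5 B cell genes had its highest sums in the same libraries, at 24 CPM in WT pool 5 and 22.5 CPM in Rag1-/- pool 2 against 8.77 to 10.9 CPM in the others. Of its 4 tested genes 0 were called (edgeR, 1 at an unadjusted p under 0.05), and its part in the *Cd6* and *Cd8a* values was not tested. *Cd8a* had 31 counts in WT pool 5 but 0 in Rag1-/- pool 2.

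In all, 8 of the 10 genes were tested, and 2 (*Cd3g* and *Cd247*) were called higher in the libraries labelled Rag1-/- at an adjusted p-value under 0.05 and a log2 fold change above 1. Over the 19011 genes tested, 3.58% were called higher and 2.16% lower (5.74% in either direction). None of the 8 was called lower by edgeR (*Cd5* alone had an unadjusted p under 0.05 with a negative sign), against 1 with DESeq2, which called 7.65% of 16428 genes lower and 7.29% higher (14.9% together). The median log2 fold change of the 8 genes was 0.89, beside 0.02 for all genes tested. In 5 of the 8 the groups did not overlap (4 higher, 1 lower), and the same was true of 45.9% of all genes tested (21.9% higher, 24.0% lower).

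Both calls were lost when any of 4 libraries was left out. Without WT pool 5, 6 or 13, or without Rag1-/- pool 2, *Cd3g* had a log2 fold change of 2.07, 2.18, 2.47 and 2.22 (adjusted p = 0.0543, 0.0917, 0.109 and 0.0659, edgeR), and *Cd247* stayed between 1.61 and 1.81. In these 4 fits no gene of the whole table was called, while 3521 to 5200 genes had an unadjusted p under 0.05. Without Rag1-/- pool 7, the lone Rag1-/- library being taken to vary like the WT libraries, both genes were called (adjusted p = 0.0149 and 0.0174).

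**Figure D2:**
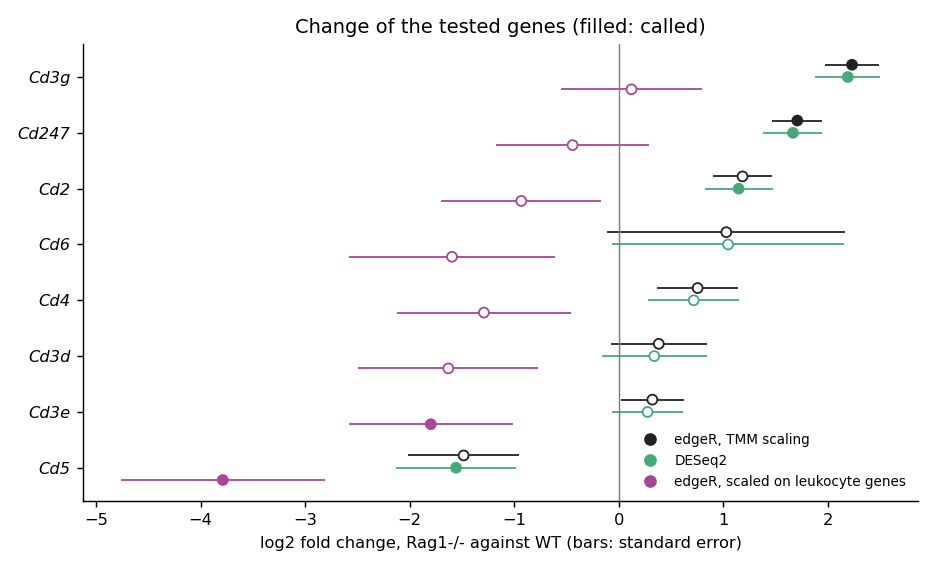
Log2 fold change, Rag1-/- over WT (horizontal axis), of the 8 tested genes in 3 fits, edgeR with TMM scaling, DESeq2 and edgeR scaled on the leukocyte list, with bars for the standard error and filled points for calls. *Cd3g* is at 2.23, 2.19 and 0.12 in these fits, and *Cd5* is below 0 in all 3.

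Levels were compared between genes as CPM per kilobase of the deposited transcript length. *Cd3g* led in every library, with a mean of 14.1 CPM per kb in WT and 64.8 in Rag1-/-. In WT it was followed by *Cd3e* (4.77) and *Cd2* (4.63), which overlapped, then by *Cd247* (2.52), *Cd3d* (2.14) and *Cd5* (1.32), of which each neighbour overlapped with the next, and by *Cd4* (1.01), which overlapped with *Cd5*, and *Cd6* (0.223). In Rag1-/- the order was *Cd2* (10.3), *Cd247* (8.07), *Cd3e* (5.87), *Cd3d* (2.77) and *Cd4* (1.67), without overlap between neighbours, and then *Cd6* (0.494) and *Cd5* (0.492), which overlapped. *Cd2* and *Cd247* thus stood ahead of *Cd3e* in both libraries labelled Rag1-/-. Levels were also taken per kilobase of all annotated exons (GENCODE M21, chosen after the data were seen). These are 3269 bases against 1023 for *Cd3g* and 4080 against 1436 for *Cd3e*. *Cd3g* still led every library, with means of 4.42 in WT and 20.3 in Rag1-/-. In WT, however, *Cd2* (3.07) came ahead of *Cd3e* (1.68) without overlap. The WT mean of *Cd3d* (1.56) was ahead of that of *Cd247* (1.28), but the 2 genes overlapped (0.909 to 2.12 against 1.11 to 1.44). *Cd3e* (2.07) and *Cd3d* (2.02) overlapped in Rag1-/-. In counts, *Cd3g* took 29.2 to 39.8% of the counts on the 10 genes in WT and 54.1 and 56.7% in Rag1-/-.

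A ratio of counts within a library does not depend on how libraries are scaled to each other. For every *Cd3e* count, the WT libraries had 2.03, 1.66 and 2.68 *Cd3g* counts and the libraries labelled Rag1-/- 7.25 and 8.64. The ratio was 3.80-fold higher in Rag1-/- and the groups did not overlap. *Cd247* to *Cd3e* was 1.08, 0.962 and 0.974 in WT and 2.47 and 2.75 in Rag1-/-, and *Cd2* to *Cd3e* was 0.778, 0.752 and 0.812 against 1.25 and 1.61. *Cd5* to *Cd3e* was lower in Rag1-/-, at 0.656, 0.327 and 0.282 in WT and 0.145 and 0.0900 in Rag1-/-. In contrast, *Cd3d* to *Cd3e* was 0.302, 0.483 and 0.423 in WT and 0.447 and 0.419 in Rag1-/-, and the groups overlapped. *Cd4* to *Cd3e* was 0.368, 0.454 and 0.530 in WT and 0.566 and 0.675 in Rag1-/-, without overlap. Set against *Cd3e*, the genes *Cd3g*, *Cd247*, *Cd2* and *Cd4* were thus higher in both Rag1-/- libraries than in any WT library, and *Cd3d* was not. In an exact two-sided permutation test the ratios of *Cd3g*, *Cd247*, *Cd2* and *Cd5* had p = 0.1 (adjusted p = 0.17 over 17 ratios), the smallest that 3 libraries against 2 allow, *Cd4* to *Cd3e* had p = 0.2, and *Cd3d* to *Cd3e* had p = 0.9.

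**Figure D3:**
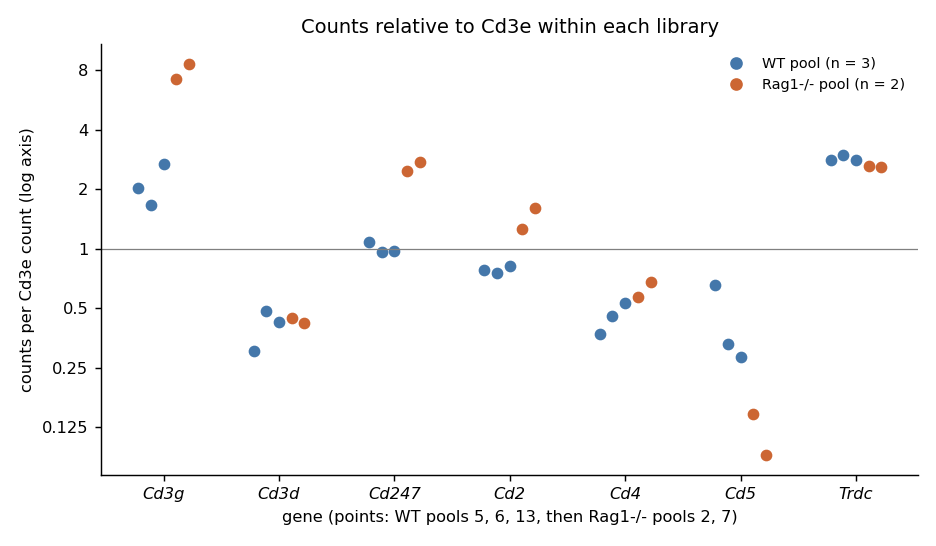
Counts of *Cd3g*, *Cd3d*, *Cd247*, *Cd2*, *Cd4*, *Cd5* and *Trdc* divided by the *Cd3e* counts of the same library (vertical axis, log scale), 1 point per library. The *Cd3g* ratio is 1.66 to 2.68 in WT and 7.25 and 8.64 in Rag1-/-, whereas the *Cd3d* ratio overlaps between genotypes.

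Since leukocyte genes as a whole took more of the Rag1-/- libraries, the genes were also set against the 26-gene leukocyte list of the same library. Per 1000 counts on that list, *Cd3g* had 9.39, 4.89 and 7.26 in WT and 7.57 and 8.49 in Rag1-/-, and *Cd247* had 5.0, 2.84 and 2.64 against 2.58 and 2.71, so that both overlapped. *Cd3e* had 4.63, 2.95 and 2.71 in WT and 1.04 and 0.983 in Rag1-/-, 3.29-fold more in WT, and *Cd3d* was 3.00-fold, *Cd4* 2.37-fold, *Cd2* 1.81-fold and *Cd5* 11.3-fold more abundant in WT, each without overlap. The direction therefore turned with the reference. In CPM, *Cd3g*, *Cd247*, *Cd2* and *Cd4* were higher and *Cd5* lower in Rag1-/- without overlap, whereas relative to leukocyte RNA *Cd3e*, *Cd3d*, *Cd4*, *Cd2* and *Cd5* were lower and no gene was higher without overlap (p = 0.1 for each of the 5, exact two-sided permutation test, adjusted p = 0.17).

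Scaling the edgeR fit on the leukocyte list moved the median of all genes by -2.18 and called 72.2% of them lower and 0.0842% higher (72.3% together). Under it *Cd3g* had a log2 fold change of 0.12 (adjusted p = 0.869), the signs of *Cd247*, *Cd2*, *Cd4*, *Cd3d*, *Cd3e* and *Cd6* turned negative, and *Cd3e* (-1.80, adjusted p = 0.0334) and *Cd5* (-3.79, adjusted p = 0.000934) were called lower. Relative to the median of all genes, the changes were 2.30 for *Cd3g*, 1.74 for *Cd247*, 1.25 for *Cd2*, 0.38 for *Cd3e* and -1.61 for *Cd5*, and the order of the genes was that of the TMM fit except that *Cd4* (0.89) came ahead of *Cd6* (0.59). The leukocyte list itself had 20 of 26 genes called higher and a median log2 fold change of 1.99, beside 2.23 for *Cd3g* and 0.32 for *Cd3e*. The part of this shift in the changes of the CD3 and coreceptor genes was not tested.

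The other genes of the T cell receptor pathway were taken as 6 lists, of which 61 of 63 genes were tested, 23 were called higher in the libraries labelled Rag1-/- and 0 lower by edgeR, with 0 lower by DESeq2 also. Of the genes with a negative sign, *Tcrg-C2*, *Cd2ap* and *Zbtb7b* had an unadjusted p under 0.05 and are named after their values were seen. Scaled on the leukocyte list, 0 of the 61 were called higher and 17 lower.

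Of the constant genes of the T cell receptor chains, with which CD3 assembles, 3 of 7 were called higher. *Trbc2* (β chain) had 7.96, 16.3 and 19.7 CPM in WT and 80.1 and 73.8 CPM in the libraries labelled Rag1-/-, a log2 fold change of 2.43 (adjusted p = 0.0306, edgeR). *Tcrg-C4* (a γ chain segment) rose by 2.58 and *Trac* (α chain) by 2.11 (adjusted p = 0.0306 and 0.0349, edgeR). *Trdc* (δ chain) had 15.3, 23.8 and 19.9 CPM in WT and 24.8 and 19.2 CPM in Rag1-/-, with overlap and a log2 fold change of 0.18 (adjusted p = 0.714, edgeR), beside 0.32 for *Cd3e*. For every *Cd3e* count it had 2.80, 2.98 and 2.80 counts in WT and 2.63 and 2.58 in Rag1-/-, a log2 difference of -0.13 without overlap (p = 0.1, exact two-sided permutation test). The summed counts of *Trbc1* and *Trbc2* per *Cd3g* count were 1.60, 4.84 and 3.04 in WT and 3.42 and 3.12 in Rag1-/-, and they overlapped (p = 0.8, exact two-sided permutation test). Transcripts of constant genes do not tell whether a receptor gene was rearranged.

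Of 20 genes of proximal receptor signalling, 10 were called higher and all 20 had a positive sign, with a median log2 fold change of 1.78. *Lck*, the kinase that CD4 and CD8 carry, had 9.0, 17.9 and 13.4 CPM in WT and 90.9 and 55.7 CPM in the libraries labelled Rag1-/- (log2 fold change 2.47, adjusted p = 0.0306, edgeR). *Csk*, which holds LCK in check, rose by 1.49 and the related kinase gene *Fyn* by 1.42 (adjusted p = 0.0306 for each, edgeR). Each of these had both Rag1-/- libraries above all WT libraries, as *Cd3g* and *Cd247* did.

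Among the CD2 and SLAM family and their partners, 3 of 9 genes were called higher. These were *Slamf1*, a self-binding receptor (2.22, adjusted p = 0.0309), *Pstpip1*, whose product binds the tail of CD2 (2.01, adjusted p = 0.0351), and *Cd84*, another self-binding receptor (1.97, adjusted p = 0.0401, edgeR for each). Of the genes for ligands of the coreceptors, 4 of 8 were called higher. *Cd48*, the mouse ligand of CD2, had 4.33, 9.17 and 10.4 CPM in WT and 47.1 and 33.9 CPM in the libraries labelled Rag1-/- (2.37, adjusted p = 0.0306, edgeR), while *Cd2* itself had a log2 fold change of 1.18. The MHC class I genes *B2m* and *H2-K1*, whose products CD8 binds, rose by 1.34 and 1.31 (adjusted p = 0.0306 and 0.0307, edgeR). The MHC class II genes, whose products CD4 binds, overlapped between genotypes, with *H2-Aa* at a log2 fold change of 0.33, and so did *Alcam*, the ligand of CD6 (-0.39, adjusted p = 0.54, edgeR). Both genes of this last sentence were named after their values were seen.

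Of 5 other adaptor genes that carry activation motifs or pair with such adaptors, 0 were called by edgeR, 2 had an unadjusted p under 0.05, and the smallest adjusted p was that of *Hcst* (2.16, adjusted p = 0.0641, edgeR). Of 12 transcription factors of T cells and coreceptor choice, 3 were called higher. *Tcf7*, which acts in early T cell and innate lymphoid precursors, had 47.0, 101 and 76.4 CPM in WT and 373 and 287 CPM in the libraries labelled Rag1-/- (2.17, adjusted p = 0.0306, edgeR). *Runx3*, which silences *Cd4* in CD8 T cells, rose by 1.80 and *Tox* by 1.93 (adjusted p = 0.0309 and 0.0377, edgeR). *Zbtb7b*, the factor of CD4 T cells, had 121, 105 and 105 CPM in WT and 44 and 68.0 CPM in Rag1-/-, without overlap (-0.93, adjusted p = 0.0712, edgeR).

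**Figure D4:**
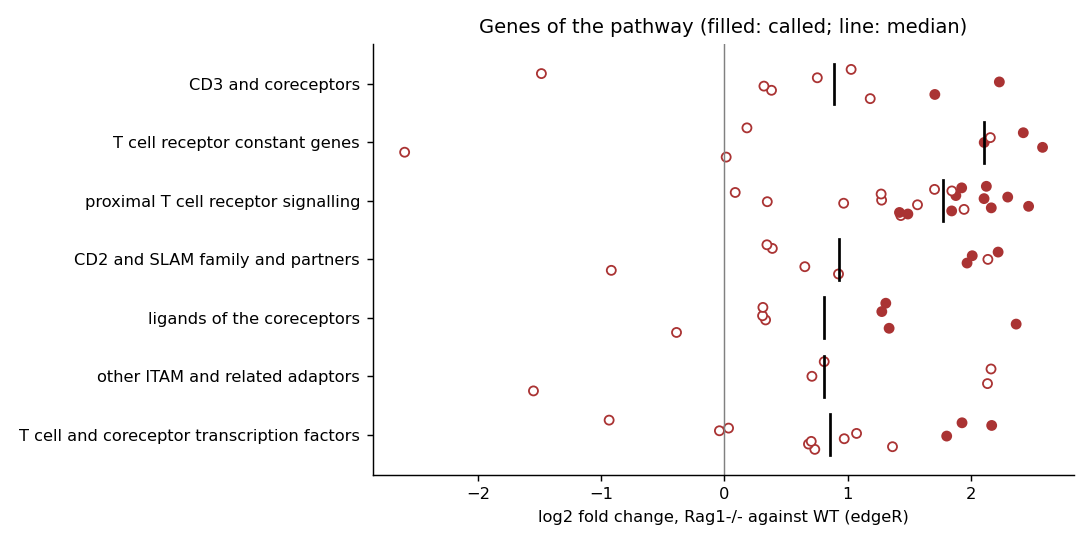
Log2 fold change, Rag1-/- over WT, of each tested gene of the CD3 and coreceptor set and of the 6 pathway lists (points, filled where called by edgeR), with the median of each list as a line. The medians are 0.89 for the CD3 and coreceptor set, 2.11 for the receptor constant genes and 1.78 for proximal signalling.

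Genes that mark other cells were set beside these values. Of 9 tested genes of the alpha-beta T cell list, 5 were called higher, and the list summed to 45.3 to 111 CPM in WT and to 386 and 419 CPM in the libraries labelled Rag1-/-, so that its sums were higher in both Rag1-/- libraries, as *Cd3g* and *Cd247* were. *Trac*, *Trbc1* and *Trbc2* belong to it as well as to the constant genes, and *Cd28* to the signalling list. Its genes *Cd40lg* and *Ctla4* had at most 3 counts in the Rag1-/- libraries, with 1 of them at 0 for each gene, and *Foxp3* had 0.232 to 1.24 CPM in WT and 2.73 and 0.745 CPM in Rag1-/-. Of 7 tested gamma-delta T cell genes, 1 was called higher and 1 lower, and the list summed to 52.2 to 87.7 CPM in WT and to 219 and 313 CPM in Rag1-/-. The Rag1-/- sums were higher through *Cd163l1* alone, since without it they were 61.8 and 82.5 CPM against 44.7 to 68.7 CPM in WT, with overlap, and the median log2 fold change of the list was 0.02. The gene called higher was *Cd163l1* (4.08, adjusted p = 0.0306) and the one called lower *Tcrg-V5*, a variable segment, at 3.20, 3.17 and 2.58 CPM in WT and 0.745 and 0.488 CPM in Rag1-/- (-2.31, adjusted p = 0.0383, edgeR for both), chosen after their values were seen. *Tcrg-V5* was thus below all WT libraries in both Rag1-/- libraries, as *Cd5* was.

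Of 14 ILC2 genes, 4 were called higher and none lower (edgeR, and all 14 had a positive sign), with sums of 1030 to 2108 CPM in WT and 2954 and 4931 CPM in the libraries labelled Rag1-/-. Their defining genes *Gata3* (0.92, adjusted p = 0.0998) and *Il1rl1* (1.71, adjusted p = 0.211, edgeR) were present in every library. The list of ILC3 genes summed to 46.3 to 59.3 CPM in WT and to 183 and 275 CPM in Rag1-/-, with 4 of 6 called higher (edgeR). *Gata3* was at 199 to 558 CPM, also in the libraries whose label says type 3. Scaled on the leukocyte list, 2 of the 6 ILC3 genes were called higher and 2 lower (edgeR). Of the 14 ILC2 genes 0 were called higher and 0 lower, beside 0.0842% and 72.2% of all genes tested. NK and ILC1 genes summed to 2.19 to 4.28 CPM in WT and to 23.6 and 24.1 CPM in Rag1-/-, with 2 of 7 called higher and *Ncr1* at under 1 CPM everywhere. *Klra8* and *Klra4* had 0 counts in all WT libraries. In Rag1-/- pools 2 and 7, *Klra8* had 0 and 31 counts and *Klra4* 1 and 14.

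B cell sums overlapped between genotypes, with *Pax5* and *Ms4a1* at 0 counts in Rag1-/- pool 2. Sums also overlapped for the macrophage, dendritic and Langerhans cell, fibroblast and endothelial lists. Mast cell genes summed to 122 to 258 CPM in WT and to 399 and 561 CPM in the libraries labelled Rag1-/-, with 0 of 4 called (edgeR, 1 at an unadjusted p under 0.05). *Kit*, also named after its values were seen, carried the higher sums. The other 3 mast cell genes had log2 fold changes of -0.82 to -0.48, and without *Kit* the sums were 69.2 to 88.3 CPM in WT and 27.7 and 63.3 CPM in Rag1-/-. *Krt5* (-1.26, adjusted p = 0.0666) and *Krt14* (-1.15, adjusted p = 0.084, edgeR) were abundant in every library. Of the surface markers of the gate, *Thy1* (CD90) rose by 1.89 (adjusted p = 0.0306), and *Ptprc* (CD45) had a log2 fold change of 1.63 (adjusted p = 0.103, edgeR). The part of these cells in the levels of the CD3 and coreceptor genes was not tested.

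**Figure D5:**
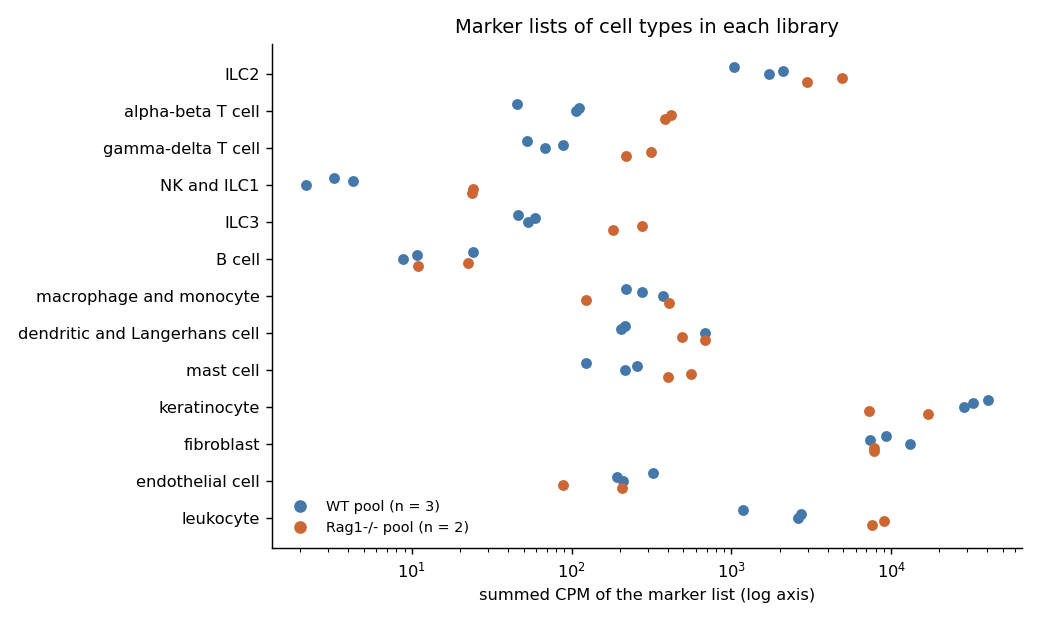
Summed CPM of each marker list (horizontal axis, log scale) in the 5 libraries, 1 point per library coloured by genotype. Leukocyte, ILC2, alpha-beta T cell, NK and ILC3 sums are higher in both Rag1-/- libraries than in all WT libraries, as are gamma-delta T cell sums through *Cd163l1* and mast cell sums through *Kit*, and keratinocyte sums are lower.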

How the data were processed

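RNA of dILC2s sorted from pooled mice was sequenced in 5 libraries (3 WT, 2 Rag1-/-), as single-end reads of 50 bases from a TruSeq kit that does not mark strand. Per the labels, bcl2fastq 2.17.1.14, FastQC 0.11.5, STAR 2.5, featureCounts 1.5.0-p1 and DESeq2 1.8.2 were used. The labels name annotation release 103 and the methods release 84, and coordinates are GRCm38 as in the file. The authors deposited raw counts per gene without normalization, a transcript length per gene, and a normalized signal per gene symbol, of which the signal was used in 1 alternative.

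Genotypes were taken from the labels. Counts of 47729 genes were filtered (filterByExpr), scaled (TMM) and tested with edgeR 4.0.16 in R 4.3.3 (quasi-likelihood test with Benjamini-Hochberg adjustment over 19011 genes, with calls for adjusted p-values below 0.05 whose log2 fold change exceeded 1 in size). The fit was tested on simulated data of 19011 genes, where 141 of 200 genes changed by 2 on the log2 scale were recovered with 15 false calls. Standard errors are the log2 fold change over the root of F, and 95% intervals use the t quantile. The Poisson intervals of CPM and the 3-count floor cover counting error only. With 3 libraries against 2 an exact permutation test cannot go below p = 0.1. Members and lists were chosen with earlier results of these data known. Named are all 10 members, at most 3 genes of smallest p-value per pathway list, defining marker genes and *Rag1*, and others are marked as chosen after their values were seen. Alternatives were DESeq2 1.42.0, limma 3.58.1 on the signal (pseudocount 1), scaling by RLE, by library size or on the leukocyte list, a filter of none or of 10 counts in each library, calls on the adjusted p-value without the fold change, each library left out, and, added after the data were seen, levels per kilobase of all annotated exons. The flow cytometry of the study was not used here. The values of 1 gene of the marker lists are not given here.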

Additional observations from a re-analysis of the deposited data

How the results depend on the processing

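No paired analysis was possible because the groups share no replicate numbers. Of the members' log2 fold changes under all alternatives, 82 kept sign and call, 6 gained a call, 10 lost one and 7 changed sign, of which 1 also gained (*Cd3e*) and 1 also lost a call (*Cd247*), both under scaling on the leukocyte list. DESeq2 called 1 member lower, and 1197 genes higher and 1256 lower in all, with 13 marker genes lower (5 of 111 tested in the edgeR fit, which called 37 higher). Without a filter 1157 genes were higher and 1488 lower, with 16 marker genes lower, and with at least 10 counts in every library 641 genes were lower. These compare with 680 higher and 411 lower in the edgeR fit. Scaling on the leukocyte list gave 0 members, 0 pathway genes, 5 marker genes and 16 genes in all higher, and 2 members, 17 pathway genes, 46 marker genes and 13726 genes in all lower, by construction, since this list rose. It turned the log2 fold change of *Cd3d* to -1.63, *Cd3e* to -1.80, *Cd247* to -0.44, *Cd4* to -1.29, *Cd6* to -1.60 and *Cd2* to -0.93. RLE scaling, library size alone and limma on the signal called the same 2 members, *Cd3g* and *Cd247*.

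With each library left out in turn, members called numbered 0 to 2 higher and 0 lower, pathway genes 0 to 22 higher and 0 to 1 lower, marker genes 0 to 35 higher and 0 to 21 lower, and all genes 0 to 814 higher and 0 to 1595 lower. Leaving out any WT pool or Rag1-/- pool 2 gave each 0. *Cd6* ranged from -0.74 (without Rag1-/- pool 2) to 2.48 (without WT pool 5). The log2 difference of the ratio to *Cd3e* ranged from 1.76 to 2.11 for *Cd3g*, 1.30 to 1.46 for *Cd247*, -0.06 to 0.28 for *Cd3d* and -2.13 to -1.41 for *Cd5*. Beyond the shift that scaling on the leukocyte list makes by construction, the cause of these differences, the changes of sign included, was not tested. The depth of Rag1-/- pool 2 limits *Cd5*, *Cd6*, *Cd8a* and *Cd8b1* most, where it had 11, 21, 0 and 0 counts. Pooled mice and 2 Rag1-/- libraries leave the spread between animals unmeasured.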
